A study of Rattus norvegicus with 8 samples.

Results

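A total of 112 genes made up the set described here. They were chosen by their normalized counts, a level obtained by dividing the reads counted on a gene by 1 size factor per library. A gene was taken when it had a gene name, stood at 20 or more normalized counts in every control library and had a mean in the Sirt6 knockdown libraries of at most 25% of its mean in the controls. Of the 13543 named gene rows of the table, 10630 met the floor of 20 in the controls and could have been chosen, so the 112 genes are 1.05% of these. Since they were selected on the contrast between knockdown and control, their levels are given as a description and carry no test.

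The cells were primary nucleus pulposus (NP) cells of adult Sprague Dawley rats, taken from the gel-like centre of the intervertebral disc and grown in DMEM with serum. All cells were transduced with lentivirus and selected with puromycin. Sirt6-KD cells (SIRT6KD/ShSirt6, libraries S5 to S8, n = 4) received a mixture of 3 ShSirt6 clones, and Sirt6-Ctrl cells (SIRT6Ctrl/ShCtrl, libraries S1 to S4, n = 4) received a control ShRNA. The submitters describe cells of 4 rats, but no label ties a library to a rat, so p-values measure the spread between these libraries. Sirt6, the targeted gene, stood at 1929, 1844, 1808 and 1628 normalized counts in S1 to S4 and at 759.5, 727, 663 and 709.8 in S5 to S8. This is a change of -1.35 ± 0.13 (standard error) on the log2 scale, with an adjusted p of 0.000713 in edgeR's quasi-likelihood test with Benjamini-Hochberg adjustment over all rows. Scaled by the spike-ins described below, it was -0.36 and was not called (adjusted p = 0.567 in the same edgeR test).

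SIRT6 is an NAD-dependent deacetylase that removes acetyl groups from histone H3 and is studied mostly for keeping chromatin closed, for DNA repair and for the control of glucose and lipid genes. NP cells are known for a matrix rich in aggrecan and collagen, for small leucine-rich proteoglycans that bind collagen fibrils, and for a life with little oxygen. Cholesterol is made from acetyl-CoA by a long chain of enzymes whose genes are switched on together by the transcription factor SREBP2 when sterols run short, and desaturases and fatty acid synthase answer to the related factor SREBP1.

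The libraries of 1 group were not alike. Total counts ran from 31994838 to 40124813. The ERCC spike-ins, synthetic RNAs added to each sample, took 6.27% and 9.80% of the counts in S1 and S2, 3.08% and 2.97% in S3 and S4 and 2.15% to 2.47% in Sirt6-KD. The mean share was 5.53 ± 3.23% in Sirt6-Ctrl and 2.29 ± 0.148% in Sirt6-KD (SD, n = 4 per group). This gave p = 0.0286 in an exact permutation test, two-sided, which is as low as 4 libraries against 4 can go. Values against S3 and S4 alone are therefore given for some genes of the classes and, by class, near the end of the Results. Among the NP markers, Acan was at 155, 526, 304 and 1905 normalized counts in S1 to S4 and Krt8 at 365, 239, 129 and 164. Col2a1, Krt18, Krt19, T and Shh were sought by symbol and were not among the 13543 named gene rows. Of the markers of other cells, 1 of 6 of endothelium, 2 of 8 of blood and immune cells and 3 of 6 of nerve and glia were measured. Those of endothelium summed to 0 to 17.4 normalized counts per Sirt6-Ctrl library and 6.21 to 20.4 per Sirt6-KD library, those of blood and immune cells to 50.4 to 112 and 95.2 to 179, and those of nerve and glia to 23.1 to 73.8 and 78.1 to 117. The part of such cells in the results was not tested.

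Most of the 112 genes drew few reads in control cells. Normalized counts are not divided by gene length, so they compare libraries and not the amounts of different transcripts. The Sirt6-Ctrl means of the genes ran from 35.1 to 105641 normalized counts with a median of 189, against a median of 1028 over the 10630 genes that could have been chosen. Means under 100 were found for 35 of the 112 genes (31.2%, against 4.69% of the 10630), and 21 stood at 1000 or more. In Sirt6-KD the median of their means was 29.4 normalized counts. The median ratio of the means was 0.167, or 16.7% of the control, and the lowest was 0.0224. The genes just inside the limit of 25% were Fbln7, Cfap53 and Zkscan4, at 24.8%, 24.9% and 24.97%, and those just outside it were Ptpn7, LOC100911516 and Proca1, at 25.1%, 25.1% and 25.2%. For the floor, the lowest control library was at 20.3 in Cideb, 20.6 in Hand1 and 22.3 in Sdsl, and at 19.6, 19.9 and 19.96 in Asic1, C1qtnf12 and Kcnk7, which were left out. A further 217 rows met the ratio but not the floor. At least 1 Sirt6-KD library stood at 3 reads or fewer in 27 of the 112 genes and at 0 in 6, so that their ratios rest on few reads.

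**Figure D1:**
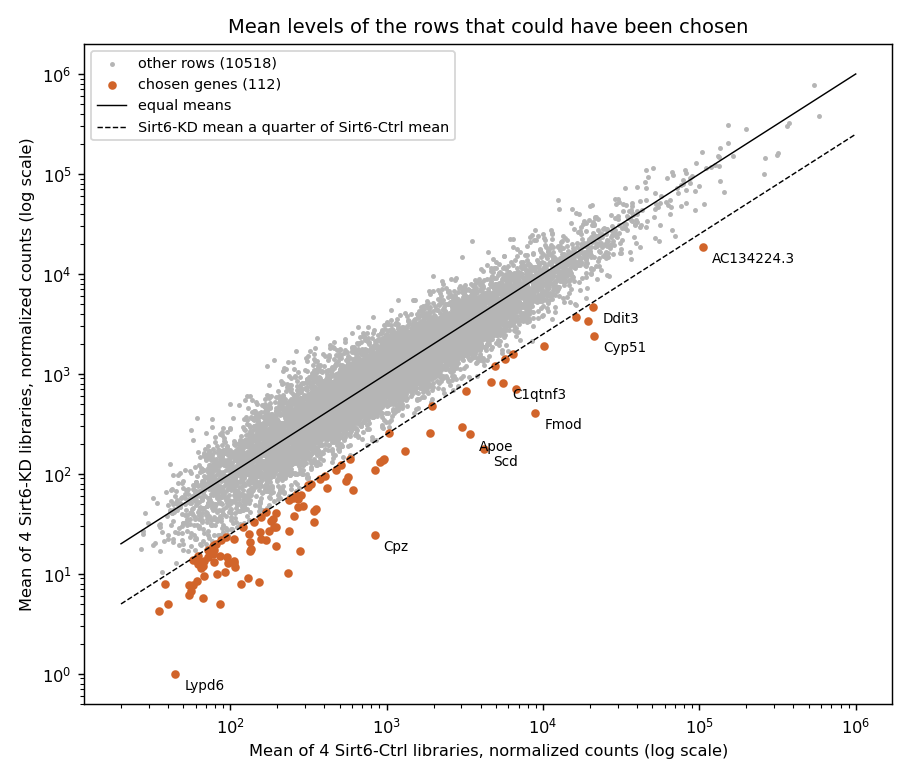
Mean normalized counts of the 4 Sirt6-Ctrl libraries (horizontal axis, log scale) and of the 4 Sirt6-KD libraries (vertical axis, log scale) for the 10630 rows that could have been chosen. The 112 chosen genes (orange) lie on or below the dashed line at 25% of the control by construction, and their control means run from 35.1 to 105641.

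In 95 of the 112 genes every Sirt6-KD library was below every Sirt6-Ctrl library, against 18.7% of the 10630 genes, and for the remaining 17 the groups overlapped. The rule used the same contrast, so nothing is read from the difference between these shares. The same holds for counts of this kind within the classes below. In 18 of the 112 genes, which are 0.169% of the 10630, every Sirt6-KD library was at most 25% of the lowest Sirt6-Ctrl library. These were the sterol enzymes Cyp51, Hmgcs1, Idi1 and Dhcr7, the desaturase Scd, Apoe, the matrix genes Fmod, Cpz, Cpxm2 and Dpt, the membrane proteins Gcgr, Tbxa2r, Sez6l and Lypd6, and Tyrp1, Alpl, Ppp1r10 and Exosc6. The opposite pattern, a Sirt6-KD mean of at least 4 times the control, was found in 42 of the 10630 genes.

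**Figure D2:**
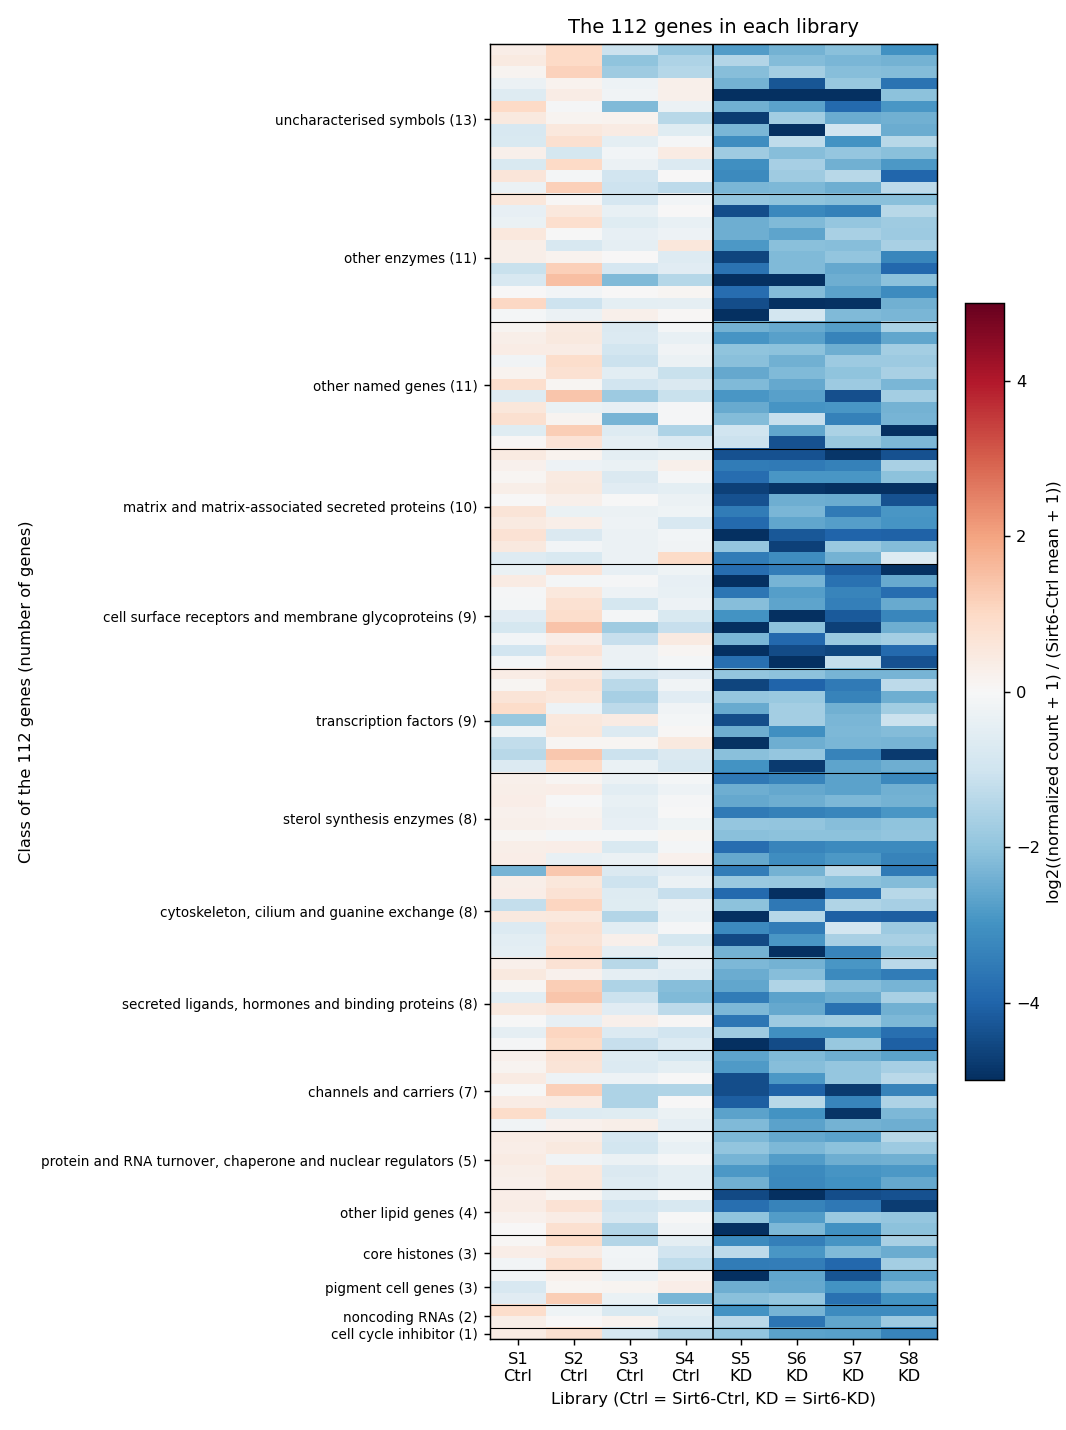
Heat map of the 112 genes (rows, grouped by class, with the number of genes in each) in the 8 libraries (columns). Colour is log2 of the normalized count plus 1 over the Sirt6-Ctrl mean plus 1, limited to the range -5 to 5; the Sirt6-KD columns are blue throughout, and within Sirt6-Ctrl, S1 and S2 are redder than S3 and S4 in most rows.

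Of the 20 genes of cholesterol synthesis, 8 were among the 112. The groups did not overlap in any of the 8, as in 95 of all 112 genes. They stand at several steps of the chain. Levels are given in the order S1 to S4 against S5 to S8. Hmgcs1 encodes the synthase that makes HMG-CoA. Hmgcs1 was at 7792, 7437, 4995 and 6694 normalized counts in S1 to S4 and at 587, 642, 693 and 905 in S5 to S8, a 9.52-fold lower mean. Idi1 and Fdps encode the enzymes that rearrange and join isoprene units. Idi1 was at 3709, 3832, 1791 and 2855 in the controls and at 215, 305, 332 and 332 in the knockdown, 10.3-fold lower and the largest fold of the 8. Fdps was at 23488, 24253, 13607 and 16310 against 3574, 3306, 3055 and 3674, 5.71-fold lower. In both genes S3 was the lowest control and still above every knockdown library.

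After squalene the pathway closes the ring and trims it. Sqle, the squalene epoxidase, had a mean of 6464 ± 1413 normalized counts in Sirt6-Ctrl and 1597 ± 84.3 in Sirt6-KD (SD, n = 4 each). Cyp51, the sterol demethylase, was at 21333 ± 3439 and 2405 ± 681, and Msmo1, which removes further methyl groups, at 10089 ± 2037 and 1911 ± 169. Dhcr7, which makes cholesterol in the last step of one branch, was at 1049.8, 643, 689 and 989.8 in S1 to S4 and at 142, 96.3, 116 and 81.7 in S5 to S8. Against S3 and S4 alone the 8 genes were 3.30-fold (Sqle) to 8.27-fold (Hmgcs1) lower, and all but Sqle were still at or under 25%.

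The other 12 enzymes of the chain were not part of the choice, apart from having missed its limit, and could be tested. In edgeR's quasi-likelihood test with Benjamini-Hochberg adjustment over all rows, 11 of the 12 were called lower in Sirt6-KD and none higher. A call needs an adjusted p under 0.05 and a change over 1.5-fold, and of all 13250 genes tested 10.7% were called lower and 8.02% higher. Every count of calls in a list below is to be set beside these shares. The median log2 fold change of the 12 was -1.05, against -0.02 over all genes. Those of the 11 that were called ran from -2.004 (Tm7sf2, a sterol reductase, standard error 0.34) to -0.73 (Lss, standard error 0.17). Fdft1, the squalene synthase, fell from 2577 ± 63.6 to 1261 ± 101 normalized counts (SD, n = 4 each, log2 fold change -1.05, edgeR adjusted p = 0.00143). Nsdhl and Sc5d, which act on the sterol ring, had log2 fold changes of -1.42 and -1.06 (edgeR adjusted p = 0.00149 and 0.00224). Mvk, the mevalonate kinase, was at 839.6, 1511, 668 and 572 in the controls and at 533, 622, 594 and 529 in the knockdown and was not called (edgeR adjusted p = 0.118). Without S1 and S2 the number called was 8 of 12, and without S6 or without S7 it was 7. Scaled by the spike-ins, which moved the median over all genes from -0.02 to 0.94 on the log2 scale, none of the 12 was called, and among the 11 the log2 fold change was negative in 7 and positive in 4.

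**Figure D3:**
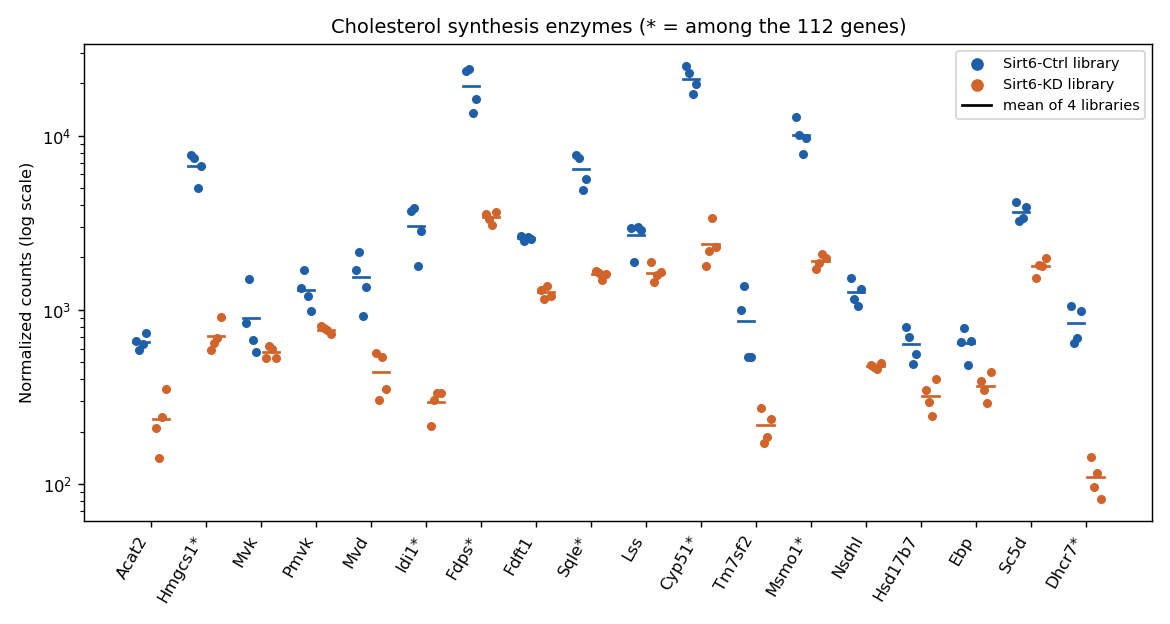
Normalized counts (log scale) of 18 of the 20 cholesterol synthesis enzymes in pathway order, with 1 point per library (Sirt6-Ctrl blue, Sirt6-KD orange) and a bar at the mean of 4 libraries. Stars mark the 7 enzymes shown that are among the 112 genes, whose groups do not overlap.

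The genes that sense sterols or take them up held no member. Of 16 tested, 6 were called lower and none higher, and their median log2 fold change was -0.06. Srebf1, which encodes SREBP1, fell from 8467 ± 2267 to 2141 ± 86.7 normalized counts (SD, n = 4 each, log2 fold change -2.001, edgeR adjusted p = 0.000366), and Srebf2 changed by -1.23 (standard error 0.14, edgeR adjusted p = 0.00143). The sterol-sensing retention factor Insig1 was also called lower, at -1.19 (standard error 0.15, edgeR adjusted p = 0.00217). The cholesterol exporter Abca1 was at 1816 ± 133 and 1779 ± 469 and was not called (edgeR adjusted p = 0.886).

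Among the other lipid genes, 4 were members, and all 4 had groups that did not overlap, as did 95 of all 112 genes. Scd, the desaturase that puts the first double bond into saturated fatty acids, was at 5360, 4654, 2895 and 3959 normalized counts in S1 to S4 and at 185, 120.2, 197 and 203 in S5 to S8. This is 4.18% of the control, a 23.9-fold lower mean, and 19.5-fold lower than S3 and S4 alone. Apoe, the apolipoprotein that carries lipid between cells, was at 4350.4, 5541, 1771 and 1928 against 250.2, 336, 281 and 127. Its controls split into a high pair, S1 and S2, and a low pair, S3 and S4, and the low pair was 7.45-fold above the knockdown mean. Stard10, a phospholipid transfer protein, and Cideb, a lipid droplet protein, were 4.33-fold and 7.48-fold lower. Of the 13 other fatty acid synthesis genes tested, 6 were called lower and 1 higher, with a median log2 fold change of -0.55. Fasn, the fatty acid synthase, fell from 11352 ± 1604 to 3516 ± 345 (SD, n = 4 each, log2 fold change -1.71, edgeR adjusted p = 0.000224), and Scd2, a related desaturase, changed by -1.55 on the log2 scale (standard error 0.15, edgeR adjusted p = 0.000462). Me1, the malic enzyme, and Acsl3, an acyl-CoA synthetase, were called lower at -0.85 and -1.05 (edgeR adjusted p = 0.00427 and 0.00645). Fads1, which desaturates polyunsaturated fatty acids, was called higher, at 0.71 (standard error 0.23, edgeR adjusted p = 0.0472).

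Matrix proteins and secreted proteins that bind the matrix made up 10 of the 112 genes. All 10 stayed at or under 25% when the controls were S3 and S4 alone, as did 69 of all 112 genes. Fmod encodes fibromodulin, a small leucine-rich proteoglycan that binds collagen fibrils. It was at 12250, 10173, 6297 and 7095 normalized counts in S1 to S4 and at 439, 441, 307 and 435 in S5 to S8, so that 4.53% of the control level was left. Cpz and Cpxm2 encode secreted members of the carboxypeptidase family. Cpz was at 1021, 1165, 561 and 599 against 32.3, 26.9, 16.2 and 23.5, 33.9-fold lower, and Cpxm2 at 385, 142, 189.7 and 213 against 3.03, 11.4, 13.5 and 13.3, 22.6-fold lower.

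C1qtnf3, a secreted protein with a C1q-like domain and a collagen-like stretch, was at 6444, 4704, 4415 and 6584 normalized counts in the controls. In the knockdown it was at 491, 473, 532 and 1780, with S8 more than 3 times as high as the other 3 libraries. Cthrc1, a secreted protein with a collagen triple helix repeat, was at 1004, 1307, 575 and 896 against 66.6, 123, 127 and 229, again highest in S8. Dpt, dermatopontin, was at 614, 719.8, 606 and 501 against 29.3, 111, 108 and 28.6. Its knockdown libraries formed a low pair, S5 and S8, and a higher pair, S6 and S7, both under every control.

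Comp and the matrilins are adaptor proteins of cartilage matrix that link collagen fibrils with other components. Comp was at 549, 281, 287 and 302 in S1 to S4 and at 30.3, 72.5, 29.6 and 45.96 in S5 to S8, with S1 far above the other controls. Matn2 was at 342 ± 123 and 42.8 ± 14.8, and Matn4 at 131 ± 36.9 and 25.3 ± 14.3 (SD, n = 4 each). Fbln7, a fibulin, was at 50.1, 46.2, 63.9 and 153 against 6.05, 8.29, 14.4 and 49.02, and here the groups overlapped, since S8 of the knockdown was above S2 of the controls.

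**Figure D4:**
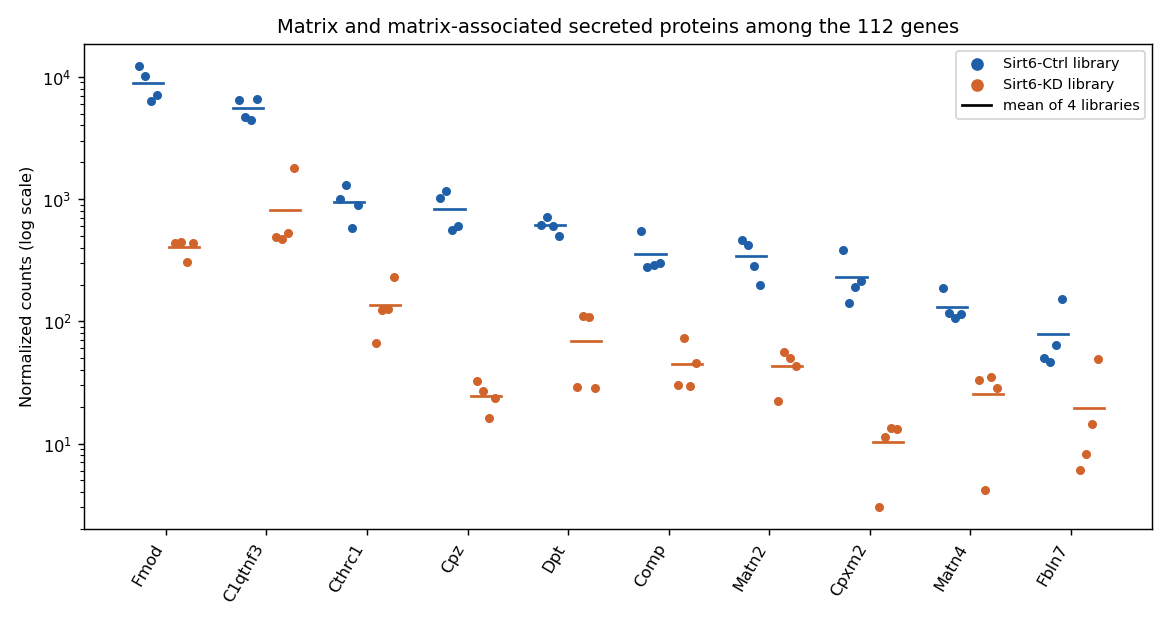
Normalized counts (log scale) of the 10 matrix and matrix-associated genes among the 112, with 1 point per library (Sirt6-Ctrl blue, Sirt6-KD orange) and a bar at the mean of 4 libraries. In 9 of the 10 every knockdown library lies below every control library, and in Fbln7 the groups overlap.

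None of the 22 collagen genes, 10 matrix metalloproteinase genes and 18 ADAM and ADAMTS genes that could have been chosen were among the 112. The share over all 10630 genes was 1.05%, at which families of this size may hold none, so nothing is read from this absence. Of 23 collagen chains tested, 4 were called lower and 2 higher, against 10.7% and 8.02% of all genes tested. Col3a1 fell from 36577 ± 10549 to 14242 ± 5251 normalized counts (SD, n = 4 each, log2 fold change -1.38, edgeR adjusted p = 0.00812), while Col1a1 was at 560700, 457590, 457840 and 862990 against 349490, 300810, 274220 and 602710 and was not called (edgeR adjusted p = 0.15). Of the 7 other small leucine-rich proteoglycans tested, Dcn (log2 fold change -1.71, standard error 0.27, edgeR adjusted p = 0.00421) and Prelp (-1.06, standard error 0.27, edgeR adjusted p = 0.021) were called lower and Tsku higher (0.83, standard error 0.14, edgeR adjusted p = 0.00484). Lum, lumican, was at 436, 212, 541 and 612 in the controls and 64.6, 125, 319.7 and 174 in the knockdown and was not called by edgeR (adjusted p = 0.0621), but was by DESeq2, and by edgeR without S2 or without S7. The median of the 7 was -1.06. Bgn, biglycan, was at 78245 ± 8093 and 86658 ± 4802 and was not called. In the cartilage matrix list, edgeR called 0 of the 9 genes outside the 112, with 0 at an unadjusted p under 0.05 and 0 called by DESeq2. Their median log2 fold change was -0.67. Cilp2, Hapln1 and Mia had the smallest p of these (edgeR adjusted p = 0.14, 0.414 and 0.494), ahead of Acan, aggrecan, at 388, 537, 338 and 645 in the knockdown (edgeR adjusted p = 0.52). In this order their log2 fold changes were -3.13, -0.69, -1.68 and -0.62, so a missing call does not mean an unchanged level. Of 33 other genes of elastic fibres and matricellular proteins, 3 were called lower and 2 higher, against the same 10.7% and 8.02%. Postn, periostin, fell from 8164 ± 813 to 3529 ± 457 (SD, n = 4 each, edgeR adjusted p = 0.00129), Fbln5, which helps to assemble elastic fibres, had a log2 fold change of -1.67 and Sparc of -0.99, while Vcan, versican, was called higher at 1.63 (edgeR adjusted p = 0.0109, 0.0179 and 0.0169).

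As to tissue identity, the single NP marker among the 112 was Car3, a carbonic anhydrase. It was at 416, 794, 424 and 556 normalized counts in S1 to S4 and at 24.2, 58.00, 52.1 and 207 in S5 to S8, with S8 the highest knockdown library and still under every control. Of 10 other NP markers tested, Krt8 was called lower (log2 fold change -1.32, standard error 0.41, edgeR adjusted p = 0.0441) and the glucose transporter gene Slc2a1 higher (1.27, standard error 0.33, edgeR adjusted p = 0.0225). The median of the 10 was -0.36. Sox9, Pax1 and Foxf1, transcription factors of the disc lineage, had log2 fold changes of 0.48, -0.43 and -0.29 and were not called (edgeR adjusted p = 0.461, 0.0459 and 0.258), the second because its change was under 1.5-fold. Sox9 was called higher by edgeR without S2 (1.06). Cd24, a surface marker of young NP cells, was not called by edgeR (-0.98, adjusted p = 0.0537) but was called lower by DESeq2 (adjusted p = 0.0218) and by edgeR without S4 or without S7. Of 5 cartilage markers other than Comp, Col9a1 was called higher, at 1.96, 1.05, 0 and 0.830 in the controls and 28.2, 13.5, 11.7 and 31.7 in the knockdown, and Chad, Hapln1 and Matn3 were not called by edgeR. DESeq2 called Chad lower (-3.48, adjusted p = 0.0157), and so did edgeR without S3. Tendon and annulus markers held no member, and edgeR called Scx alone of the 6 (log2 fold change -1.20, standard error 0.39, edgeR adjusted p = 0.049). The call was lost with RLE size factors (edgeR adjusted p = 0.0521), and DESeq2 called 2 of the 6 lower. Alpl, the alkaline phosphatase of mineralizing cells, was a member. Its controls were even, 97.2, 87.2, 99.4 and 105, and the knockdown libraries stood at 6.05, 20.7, 14.4 and 10.2, 7.56-fold lower and 7.94-fold lower than S3 and S4 alone. The other bone marker genes tested were Runx2, which was called higher (log2 fold change 0.83, standard error 0.21, edgeR adjusted p = 0.0208), and Ibsp, which was not called.

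Several members are better known from tissues other than the disc. In bulk RNA, fewer cells of a type and less RNA per cell cannot be told apart. Tyrp1 and Mlana encode melanosome proteins of pigment cells, and Rab27a a small GTPase that moves melanosomes and other vesicles. Tyrp1 was at 310.3, 394, 277 and 387 normalized counts in S1 to S4 and at 8.07, 55.9, 16.2 and 53.1 in S5 to S8, 10.3-fold lower and 9.97-fold lower than S3 and S4 alone. Rab27a was at 155, 288, 302 and 344 against 49.4, 45.6, 33.2 and 58.2. Mlana was uneven, at 103, 358, 124 and 30.7 against 35.3, 39.4, 10.8 and 18.4, and its groups overlapped. In a list of melanosome genes written after these values were seen, Pmel, Mitf and Trpm1 were measured and not called by edgeR, with means of 49.8 ± 26.3, 1674 ± 347 and 20.5 ± 22.7 in Sirt6-Ctrl and 71.8 ± 29.04, 1804 ± 289.7 and 92.8 ± 36.1 in Sirt6-KD (SD, n = 4 each). DESeq2 called Trpm1 higher (log2 fold change 2.17, adjusted p = 0.0431), as did edgeR without S4. Other genes of that list, Tyr and Dct among them, were not found by symbol among the 13543 named gene rows.

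Secreted ligands and hormones numbered 8. Lhb, a subunit of luteinizing hormone, was at 64.8, 132, 29.4 and 41.5 normalized counts in the controls and at 1.01, 2.07, 17.1 and 3.06 in the knockdown, 11.6-fold lower. Pomc, the precursor of ACTH, was at 135, 146, 63.9 and 38.2 against 19.2, 15.5, 6.29 and 17.4. Both are known from the pituitary. Their highest value in any library here was 146 normalized counts. Wnt11 and Cxcl14 encode a Wnt ligand and a chemokine. Wnt11 was even within the controls, 70.7, 54.6, 87.2 and 75.5, and stood at 5.04, 19.7, 20.7 and 14.3 in the knockdown, 4.83-fold lower. Of 23 other Wnt pathway genes tested, 3 were called lower and 2 higher, against 10.7% and 8.02% of all genes tested. Nothing is read from these counts. Dkk3 and Sfrp4, Wnt antagonists, were called lower (-0.99 and -2.003, edgeR adjusted p = 0.011 and 0.0254), Rspo1 was called higher, and so was the ligand Wnt5a (log2 fold change 1.04, standard error 0.29, edgeR adjusted p = 0.0273). Cxcl14 was at 50.1, 146, 42.6 and 34.8 against 19.2, 7.25, 7.18 and 4.08, with S2 far above the other controls. Fam19a5, a secreted protein of the nervous system, was 6.75-fold lower. Mdk, the growth factor midkine, Igip and Wfikkn1, an inhibitor of GDF8 and GDF11, had overlapping groups. Wfikkn1 was at 257, 560.1, 81.2 and 53.9 in S1 to S4 and at 38.3, 82.9, 52.98 and 46.98 in S5 to S8, so that S3 and S4 were level with the knockdown libraries and the mean of these controls was 1.22 times the knockdown mean.

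Receptors and membrane glycoproteins numbered 9 and included the lowest ratio of all. Lypd6, a GPI-anchored protein of the Ly6 family, was at 22.6, 71.5, 36.5 and 47.3 normalized counts in S1 to S4 and at 0, 1.04, 0.898 and 2.04 in S5 to S8. These are 184 reads over 4 control libraries and 4 reads over 4 knockdown libraries, and the ratio of 2.23% has an exact 95% interval of 0.602% to 5.82% that covers counting error only. The interval pools the reads of a group. It covers neither the spread between libraries nor the fact that Lypd6 is named for having the lowest ratio. The G protein-coupled receptors of the class were lower in every knockdown library than in any control. Gcgr, the glucagon receptor, was at 220, 449.7, 211 and 239.8 against 19.2, 24.9, 15.3 and 8.17, 16.6-fold lower. Tbxa2r, the thromboxane receptor, was 10.5-fold lower, Gpr37 8.73-fold, Cmklr1, the chemerin receptor, 8.83-fold and Grm4, a glutamate receptor, 4.89-fold. S2 was far above the other controls of Cmklr1, 49.1, 252, 26.4 and 41.5, and against S3 and S4 alone it was 3.25-fold lower. Sez6l and Sorcs2 were 14.8-fold and 6.32-fold lower. Muc1, a mucin, was at 37.3, 52.5, 32.5 and 37.3 against 2.02, 0, 17.1 and 1.02, 7.94-fold lower and 39.4-fold lower without S7.

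Channels and carriers numbered 7. Panx1 and Panx2 encode pannexins, which form large pores in the cell membrane. Panx1 was at 439, 635, 246 and 285 normalized counts against 55.5, 92.2, 105 and 128, 4.22-fold lower, and Panx2 at 155, 52.5, 53.8 and 66.4 against 12.1, 9.32, 1.80 and 16.3, 8.29-fold lower. Fxyd6, a regulator of the sodium pump, was at 151, 353, 51.7 and 52.3 in S1 to S4 and at 6.05, 8.29, 4.49 and 14.3 in S5 to S8, 18.4-fold lower. Its S1 and S2 were far above S3 and S4, and against the latter the difference was 6.28-fold. The potassium channel gene Kcnj14, the carriers Slc5a10 and Slc23a3 and Mfsd7 were 4.66-fold to 5.73-fold lower, with overlapping groups in Slc23a3. Of the 181 solute carrier genes that could have been chosen, these 2 with an Slc symbol were the members (1.10%, against 1.05% of all genes).

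Transcription factors numbered 9. Ddit3, which encodes the stress factor CHOP, was at 27053, 30496, 12132 and 14165 normalized counts in S1 to S4 and 5347, 5009, 4154 and 4149 in S5 to S8. Its mean was 4.49-fold lower, and 2.82-fold lower than S3 and S4 alone. Atf4, an activator of Ddit3, was at 43198 ± 15999 and 43680.5 ± 4947 (SD, n = 4 each) and was not called (log2 fold change -0.003, edgeR adjusted p = 0.995). Atoh8, a bHLH factor, was at 964, 1493, 353 and 796 against 36.3, 54.9, 76.3 and 363, with S8 above S3 so that the groups overlapped. They also overlapped in Zkscan4, a zinc finger gene, while Tcfl5 was 4.20-fold lower. Barx1, Six2, Hoxb5, Hand1 and Tbx6 are patterning factors of the embryo. Six2 was at 25.5, 66.2, 65.9 and 86.3 in the controls and 1.01, 10.4, 11.7 and 11.2 in the knockdown. Tbx6, known for paraxial mesoderm, was at 33.4, 111, 43.6 and 30.7 against 6.05, 1.04, 8.08 and 9.19, and Hoxb5 at 73.7, 128, 52.7 and 88.8 against 15.1, 9.32, 17.1 and 18.4. S3 and S4 alone were 8.88-fold, 6.10-fold and 4.73-fold above the knockdown mean in Six2, Tbx6 and Hoxb5. Hoxb5 was 1 of 17 Hox genes that could have been chosen, of which 6 had a Sirt6-KD mean at or below 50% of the control, against 7.51% of all 10630 genes. The 6 include Hoxb5 itself, and this is the ratio that the rule used, so nothing is read from the difference. No gene with a Sox symbol (6) or a forkhead symbol (17) was a member. At 1.05% over all genes, families of this size may hold none.

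Genes of protein and RNA turnover, chaperones and nuclear regulators numbered 5. Cryab, a small heat shock protein that is abundant in lens and muscle, was at 20977, 21378, 9052 and 14000 normalized counts against 3415, 2742, 2559 and 6216, 4.38-fold lower. Hspb1, a related chaperone outside the 112 and named after its value was seen, was called lower (log2 fold change -1.34, standard error 0.24, edgeR adjusted p = 0.00596). Psmb3, a subunit of the proteasome core, was at 7300.5, 8158, 3083 and 4465 against 1449.5, 1207, 1399 and 1621, and Exosc6, a subunit of the RNA exosome, at 1612, 1924, 801 and 940 against 179, 144, 168 and 179.7. Ppp1r10, a regulator of nuclear protein phosphatase 1, and Ell3, an elongation factor, were 5.56-fold and 6.89-fold lower. The cell cycle inhibitor Cdkn1c (p57) was at 387, 516, 163 and 105 against 73.6, 44.5, 44.00 and 28.6. In these genes S1 and S2 were above S3 and S4, except in Ppp1r10, where S4 exceeded S2. Against S3 and S4 alone the folds were 2.66 in Psmb3, 2.81 in Cdkn1c and 3.09 in Cryab. They were 4.61 in Ell3, 4.93 in Ppp1r10 and 5.20 in Exosc6.

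Other enzymes numbered 11. Hsd17b1, which makes estradiol from estrone, was at 179, 40.98, 60.9 and 63.1 normalized counts against 3.03, 0, 1.80 and 15.3, 17.1-fold lower, and Aldh3a1, an aldehyde dehydrogenase, at 72.7, 64.1, 93.3 and 82.1 against 1.01, 40.4, 16.2 and 15.3. Cyp2j4 and Cyp2j10 are neighbouring P450 genes of 1 family with similar sequence, so that reads may be shared between them. They were 6.64-fold and 7.89-fold lower, the latter 4.42-fold without S2. Sdsl, a dehydratase-like enzyme, had overlapping groups, at 61.9, 308, 22.3 and 39.00 against 1.01, 1.04, 18.9 and 25.5. Of 15 other aldehyde, retinoid and xenobiotic enzymes tested, Gpx3 and Nqo1 were called lower (-1.43 and -1.49, edgeR adjusted p = 0.00249 and 0.00435) and none higher, with Cyp1b1 and Crabp1 next by p and not called. Over all genes tested, 10.7% were called lower and 8.02% higher. Crabp1 had a log2 fold change of -2.75 (edgeR adjusted p = 0.151). DESeq2 called Cyp1b1 higher (0.97, adjusted p = 0.0469), as did edgeR without S4. Bace2, a membrane protease, Gamt, which makes creatine, B4galt4 and Nat6 were 4.09-fold to 4.36-fold lower.

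Core histone genes gave 3 members of 14 that could have been chosen (21.4%, against 1.05% of all genes). This difference rests on 3 genes and was not tested, so nothing is read from it. Hist2h2aa2 was at 586, 1084, 203 and 399.9 normalized counts against 61.5, 52.8, 73.6 and 184, Hist1h2bd at 50.1, 101, 49.7 and 22.4 against 4.03, 4.14, 2.69 and 16.3, and Hist1h2ai at 76.6, 81.96, 55.8 and 31.5 against 24.2, 7.25, 12.6 and 10.2. Against S3 and S4 alone the folds were 3.24 in Hist2h2aa2, 5.30 in Hist1h2bd and 3.22 in Hist1h2ai. Histone genes exist in near-identical copies, and the reads of a copy are uncertain. The noncoding RNAs were Rmrp, the RNA of RNase MRP, at 249, 118, 80.1 and 93.8 against 16.1, 25.9, 14.4 and 14.3, and RF00399. Genes of the cytoskeleton, the cilium and guanine exchange numbered 8, Plek2, Epb41l4b, Mybpc1, Actr3b, Arhgef33 and the cilium genes Cfap53, Ccdc103 and Lca5l, and were 4.02-fold to 8.33-fold lower. Mybpc1 and Plek2 had overlapping groups. The remaining 11 named genes, Tmem140, Tpd52l1, Tcta, Fam241b, Lime1, Syce1l, Lrrc24, Efcab2, Spsb4, Aamdc and Rnf225, were 4.06-fold to 7.36-fold lower, and the groups overlapped in the last 3.

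A further 13 members had symbols that describe no function. AC134224.3 was at 131980, 212620, 50080 and 27877 normalized counts in S1 to S4 and at 15449, 20794, 25142 and 13013 in S5 to S8. Its S1 and S2 were several times as high as S3 and S4, and against the latter alone it was 2.10-fold higher than in the knockdown. AY172581.19 was at 1425, 2084, 257 and 358 against 372, 229.9, 211 and 201, and AC126148.1 at 360.4, 729, 93.3 and 122 against 73.6, 100.5, 73.6 and 71.5. In both, S3 and S4 were within reach of the knockdown libraries and the groups overlapped. NEWGENE_1308171 differed from these, at 82.5, 167, 114 and 155 against 2.02, 2.07, 1.80 and 30.6, with S8 above the other knockdown libraries. LOC100910854 was the other one with overlapping groups, at 46.2, 133, 27.4 and 22.4 against 11.1, 11.4, 9.88 and 22.5. AC119762.5, LOC691995, LOC498675, Kiaa0408L, RGD1563349, LOC679087, LOC686013 and LOC688286 were 4.03-fold to 7.80-fold lower without overlap.

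Of the genes outside the 112 named with a test, Sirt6 aside, 33 were called, all 33 of them by DESeq2 as well, and 20 kept their call without each library in turn and 23 without S1 and S2 together. The 13 that lost it without at least 1 library were Lss, Fads1, Prelp, Vcan, Sparc, Slc2a1, Krt8, Scx, Col9a1, Runx2, Sfrp4, Wnt5a and Rspo1. Each of the 13 lost it without S7. Under spike-in scaling none of the 33 was called.

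The spread within Sirt6-Ctrl ran through the whole set. The highest of the 4 controls was S1 or S2 in 99 of the 112 genes (88.4%), against 56.2% of the 10630 genes, and both S1 and S2 were above both S3 and S4 in 65 (58.0%, against 29.0%). In the median member, S1 stood at 1.15 times the control mean, S2 at 1.39, S3 at 0.679 and S4 at 0.801, while the same medians over the 10630 genes were 0.951 to 1.04. The knockdown libraries stood at 0.134 to 0.193 times the control mean. The ratio of the highest to the lowest control was 2.74 in the median member and 1.81 over the 10630. The same 2 libraries had the highest share of spike-ins, and the part of this in the result was not tested.

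The fold of a member moved by over 1.5 times without 1 library in 34 of the 112 genes, and no fold went below 2.21. Without S2 it was lower in 18 genes, and the folds then were those of Cmklr1 (3.73), Sdsl (3.54), Hand1 (3.36), Cxcl14 (4.51), Spsb4 (2.95), Fxyd6 (10.3), Tbx6 (5.90), Wfikkn1 (2.37), Actr3b (2.61), AY172581.19 (2.68), Mlana (3.31), Rnf225 (2.21), Cyp2j10 (4.42), Igip (2.501), LOC100910854 (2.33), Mybpc1 (2.57), AC126148.1 (2.40) and AC134224.3 (3.76). Without S1 it was lower in Hsd17b1 (10.9) and LOC691995 (5.19). Leaving out a knockdown library raised the fold in others of the 34 or in the same genes. Without S8 this held for Sdsl (15.5), Car3 (12.2), Atoh8 (16.1), Fbln7 (8.17), C1qtnf3 (11.1), Hsd17b1 (53.4), Lypd6 (68.98), NEWGENE_1308171 (66.1), Epb41l4b (23.4) and Hist1h2bd (15.4), and without S7 for Muc1 (39.4), Lca5l (6.58), Kiaa0408L (7.99), Lhb (32.7) and Mybpc1 (8.42). Without S6 the folds were higher in Cmklr1 (13.8), Aldh3a1 (7.21) and Plek2 (25.4), and without S5 in Cxcl14 (11.1) and Rnf225 (6.11).

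Against S3 and S4 alone, all 112 genes had a lower mean in Sirt6-KD, 106 were at or below 50% and 69 at or below 25%. Over the 10630 genes the shares were 50.7%, 4.13% and 0.715%. By class, the count at or below 25% was 10 of 10 for the matrix genes, 8 of 9 for the receptors and 7 of 8 for the sterol enzymes. It was 2 of 2 for the noncoding RNAs, 3 of 4 for the other lipid genes, 2 of 3 for the pigment cell genes and 7 of 11 for the other enzymes. It was 3 of 5 for the turnover genes, 4 of 7 for the channels and 5 of 9 for the transcription factors. The uncharacterised symbols had 7 of 13, and the secreted ligands and the cytoskeleton genes 4 of 8 each. It was 2 of 11 for the other named genes, 1 of 3 for the histones and 0 of 1 for Cdkn1c. The rule used S3, S4 and every knockdown library, so these counts are a description and no independent check. The 6 genes above 50% were Igip, Wfikkn1, Rnf225, LOC100910854, AC126148.1 and AY172581.19. When levels were scaled by the spike-ins in place of the size factors, every one of the 112 had a lower Sirt6-KD mean, with log2 ratios from -4.41 to -0.44 and a median of -1.40. This sign was largely set by the choice. The rule had put every ratio at or under 25%, and the scaling moved the median over all genes from -0.02 to 0.94 on the log2 scale. With this scaling 21 of the 112 were at or below 25%. A spike-in scaled level divides by the same shares that set S1 and S2 apart. Among these 21 were Lypd6, Cpz, Scd, Cpxm2, Fmod, Hsd17b1, Gcgr, Apoe, Tyrp1, Idi1, Hmgcs1, Cyp51 and Dhcr7.

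**Figure D5:**
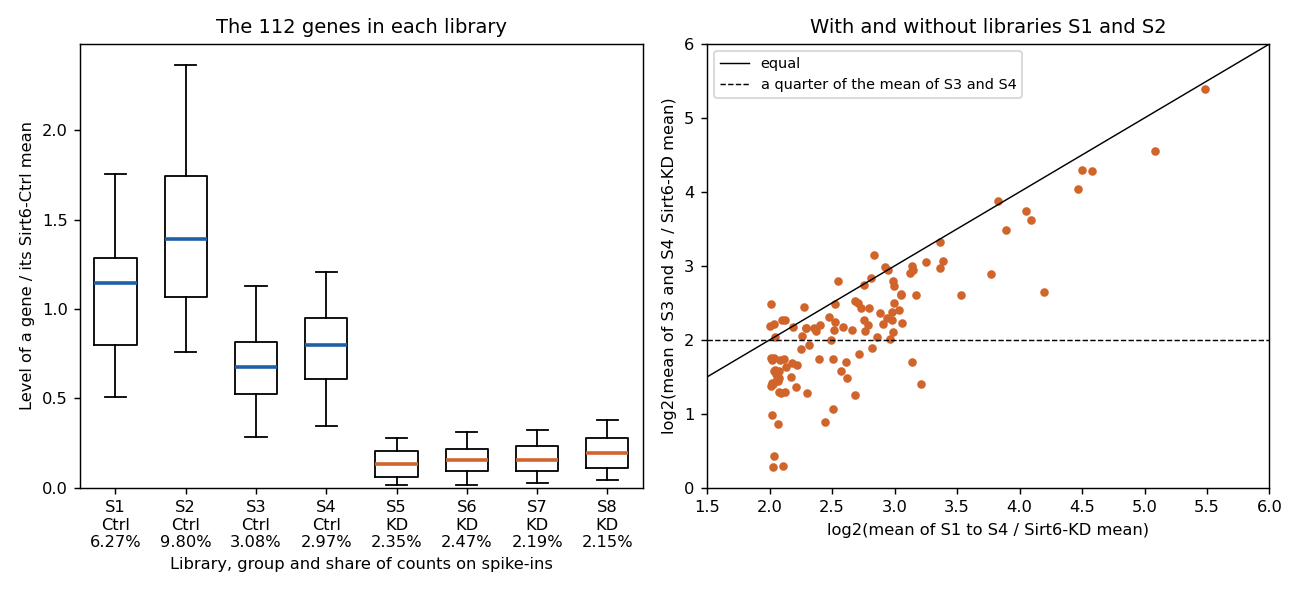
Left, level of each of the 112 genes over its Sirt6-Ctrl mean in each library (box, 25th to 75th percentile; line, median; whiskers, 5th to 95th percentile), with the share of counts on spike-ins under each library. Right, log2 of the control mean over the Sirt6-KD mean with all 4 controls (horizontal axis) and with S3 and S4 alone (vertical axis), with 1 point per gene; 69 points lie on or above the dashed line at 25% of the mean of S3 and S4.

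The promoters of the 112 genes were read for short motifs, a measure the choice did not use. RefSeq (GRCr8) held 100 of the 112 genes by symbol or synonym, and a promoter of 300 bases, from 250 before to 50 after the start, was given for 78 of them, 8267 of the genes that could have been chosen and 27457 genes in all. For genes with several starts the first listed was used. The TATA box, searched as TATAAA on both strands, was found in 17 of the 78 promoters (21.8%), against 6.16% of the 8267 and 14.3% of all promoters. When the motif had to lie on the strand of the gene and begin 40 to 20 bases before the start, where a working TATA box sits, it was found in 7 of 78 (8.97%), against 0.823% and 1.52%. Among genes with a control mean under 1000 the shares were 6 of 62 (9.68%) and 0.675%. This placed search was chosen after the data were seen. The 7 promoters are shown from 60 bases before the start to the 10th base of the transcript, 5′ to 3′ on the strand of the gene, with the TATAAA in capitals, because they are the members with the motif at that place.

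Dpt (chr13:79656281-79656350, + strand): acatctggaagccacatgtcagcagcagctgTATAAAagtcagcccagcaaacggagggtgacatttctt
Pomc (chr6:32659293-32659362, + strand): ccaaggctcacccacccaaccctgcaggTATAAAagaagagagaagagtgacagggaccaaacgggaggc
Muc1 (chr2:176933690-176933759, + strand): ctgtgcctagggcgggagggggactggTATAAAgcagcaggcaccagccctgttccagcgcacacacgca
Lhb (chr1:105037397-105037466, + strand): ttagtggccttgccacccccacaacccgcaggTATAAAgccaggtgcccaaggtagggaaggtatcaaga
Mybpc1 (chr7:24903364-24903433, - strand): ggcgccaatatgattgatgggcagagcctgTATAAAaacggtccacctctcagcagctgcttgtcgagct
Hist1h2ai (chr17:47413993-47414062, + strand): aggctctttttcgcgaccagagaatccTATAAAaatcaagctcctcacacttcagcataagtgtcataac
Ppp1r10 (chr20:2842409-2842478, - strand): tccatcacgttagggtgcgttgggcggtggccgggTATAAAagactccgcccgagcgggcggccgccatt

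The 7 genes belong to different classes, with a matrix protein (Dpt), hormones (Pomc and Lhb), a mucin (Muc1), a muscle protein (Mybpc1), a histone (Hist1h2ai) and a phosphatase regulator (Ppp1r10). They were 4.53-fold to 11.6-fold lower in Sirt6-KD. Of the sterol enzymes, 6 had a promoter in the table, and none of the 6 held the sterol response element TCACNCCAC on either strand within the 300 bases, nor did any of the 78, against 1.12% of the 8267. At that share groups of 6 or 78 may hold none, and only these letters were searched. No lack of the element in these genes is read from this. A T-box half-site, AGGTGTGA on either strand, was in 4 of 78 (5.13%, against 0.883%), those of C1qtnf3, Cideb, Igip and Sorcs2. The TEAD motif GGAATG was in 19.2% against 10.9%, the AP-1 motif TGANTCA in 8.97% against 4.62%, the CCAAT box in 39.7% against 38.1% and the GC box GGGCGG in 53.8% against 65.8%. Some of the shares rest on few genes, and a match to letters is a description of the sequence and not a bound site.

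The members were also shorter genes. The 100 genes found in RefSeq had a median span, introns included, of 13104 bases, against 24731 over 9956 genes that could have been chosen, and 42.0% spanned under 10000 bases, against 23.7%. Among genes with a control mean under 1000 the median spans were 15019 and 25591 bases. A few members were next to each other among these genes on the chromosome. They were Lca5l and Bace2 on chromosome 11, the histone genes Hist1h2ai and Hist1h2bd with Zkscan4 on chromosome 17, and Cyp2j10 and Cyp2j4 on chromosome 5. Whether reads were counted by strand is not given in the sources used here, so that overlapping and antisense genes cannot be told apart.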

How the data were processed

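RNA of the 8 libraries was sequenced by a service provider after ERCC spike-ins were added. The authors deposited counts per gene, which are whole numbers of reads, and a table of normalized signal, in which each count was divided by 1 size factor per library. That table also holds the log2 fold change and the p-value of the authors' own comparison, per the file headers, and neither column was used. The submitters' processing notes name Trimmomatic 0.36, STAR 2.5.2b, Subread 1.5.2 (featureCounts), DESeq2 and Rnor_6.0. The table holds rows whose counts sum to 81 or more over the 8 libraries. Whether counting used strand is not given in the sources used here.

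The members were found on the normalized values by the rule given above, on 1 size factor per library, so levels are relative to the other genes of a library. The members, their classes and the gene lists were chosen with earlier results of these data known. Counts were tested with edgeR 4.0.16 (R 4.3.3; filterByExpr, TMM, quasi-likelihood test, 13313 rows with spike-ins, 13250 genes), with Benjamini-Hochberg adjustment over all rows, an adjusted p under 0.05 and a change over 1.5-fold. Standard errors are the log2 fold change over the square root of the quasi-likelihood F. Library shares were compared by an exact two-sided permutation test. The fit was tested on simulated data with 200 changed genes. Genes are named by rule: the 12 members with the highest control mean, the 12 with the lowest ratio, every member in a gene list, those next to a threshold, those whose groups overlap, and up to 4 other genes with the smallest p in each list that holds a member. Other members and list genes were named after their values were seen, as examples of their class. A few genes that the rule names are not reported here. Alternatives were other scalings (RLE, spike-ins), no filter beyond 1 count, DESeq2 1.42.0, other limits of the rule, leaving out each library, and, added after seeing the data, leaving out S1 and S2 together and taking the folds of the members without each library. Total counts were 31994838 to 40124813 in Sirt6-Ctrl and 32382957 to 36600792 in Sirt6-KD, and 3 counts are worth 2.49 to 3.15 normalized counts. RefSeq (GRCr8) sequences and spans were matched to 100 of the 112 members (89.3%) by symbol or unique synonym, and no GRCr8 coordinate was mixed with the build of the counts.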

Additional observations from a re-analysis of the deposited data

Results flagged for a closer look

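In 31 of the 224 groups of 4 libraries that the 112 genes give, 1 library lay far from the other 3, judged by its gap to the nearest other library over the range of the group. A share of 1 in 20 would be 11.2 of 224. The groups are not independent, since the genes share the same 8 libraries and were chosen by level, so no excess is read from the 31. All values below are that ratio of gap to range, with no explanation weighed.

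In Sirt6-Ctrl, S2 was the high library in 12 genes: Ccdc103 (0.949), Hand1 (0.902), Cmklr1 (0.899), Cyp2j10 (0.886), Gamt (0.882), Gcgr (0.879), Cxcl14 (0.863), Sdsl (0.861), Spsb4 (0.849), Tbx6 (0.84), Rnf225 (0.84) and LOC686013 (0.834). S1 was the high library in Comp (0.92), Panx2 (0.865), Matn4 (0.848) and Hsd17b1 (0.84), and S4 in Fbln7 (0.834). S2 and S1 are the libraries with the highest share of spike-ins, and the part of this in the pattern was not tested.

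In Sirt6-KD, S8 was the high library in NEWGENE_1308171 (0.99), C1qtnf3 (0.955), Hist1h2bd (0.894), LOC100910854 (0.88), Atoh8 (0.877) and Hist2h2aa2 (0.841). S6 was high in AC126148.1 (0.926), Plek2 (0.907) and Rmrp (0.841), S7 in Muc1 (0.882) and Lhb (0.872) and S5 in AY172581.19 (0.832). S7 was the low library in Fmod (0.954) and S5 in Six2 (0.877).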

How the results depend on the processing

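The number of genes that met the rule was 112. It was 20 with spike-in scaling, of which 19 were among the 112, 222 with a limit of one in 3 in place of 25% and 26 with one in 8. The rule includes the floor of 20 in every control. By the ratio alone, 21 of the 112 were at or below 25% with spike-in scaling. Leaving out 1 library at a time gave 104 to 158 genes, with 80 to 111 of the 112 among them, and S3 and S4 as the only controls gave 142, with 69 of the 112. Over all genes, 1416 were called lower and 1063 higher. Spike-in scaling left 4 and 20, and S3 and S4 as the only controls 709 lower. Leaving out 1 library gave 700 to 1913 lower, with 777, 791, 700 and 759 without S1, S5, S6 and S7, and 445 to 1699 higher, with 552, 1699, 491, 445 and 477 without S1, S3, S5, S6 and S7. In the gene lists outside the 112, 51 calls lower and 25 higher became 0 and 1 with spike-in scaling, 13 higher with S3 and S4 as the only controls, and 33 to 59 lower (33 without S1 or S6) and 10 to 39 higher (14, 39, 14, 12 and 10 without S1, S3, S5, S6 and S7) when 1 library was left out. The cause of these moves was not tested. DESeq2 called 1721 lower and 1587 higher.

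Sirt6 had a log2 fold change of -1.40 to -1.29 when 1 library was left out and -0.36 with spike-in scaling. The difference in spike-in share was 1.82 to 4.09 points, each with an exact permutation p of 0.0571, the smallest that 3 libraries against 4 allow. Under spike-in scaling the log2 fold change turned positive in Lss (0.15), Me1 (0.20) and Sparc (0.066). No level ratio of the 112 genes changed sign under TMM scaling, spike-in scaling or S3 and S4 as the only controls. The choice by level largely set this sign in advance. No paired analysis was made, because no label ties a library to a rat. Whether libraries of the groups were matched by rat is not known, and what a paired fit would call was not tested.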

Other observations

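Gene lists that held none of the 112 genes gave calls in both directions. Of all 13250 genes tested, 10.7% were called lower and 8.02% higher. Counts near these shares are not read as a result about a list. Of 17 p53 target genes tested, 6 were called lower and 1 higher. Cdkn1a, the cell cycle inhibitor p21, fell from 18831 ± 5606 to 5683 ± 1026 normalized counts (SD, n = 4 each, log2 fold change -1.75, standard error 0.23, edgeR adjusted p = 0.00217). Of 11 genes of the IGF axis, 2 were called lower, the binding proteins Igfbp4 (-1.36) and Igfbp6 (-1.34), and 3 higher, among them the receptor gene Igf1r (1.02, on the log2 scale, edgeR adjusted p = 0.00173, 0.00596 and 0.0249). Of 34 TGF-beta and BMP genes 1 was called lower and 4 higher, and the ligand gene Bmp2 rose by 1.44 on the log2 scale (standard error 0.23, edgeR adjusted p = 0.00435). Of 15 complement and coagulation genes 2 were called lower and 4 higher, with C3 at 1.87 (standard error 0.37, edgeR adjusted p = 0.0084). In the interferon list 1 of 13 was called, Usp18, higher, and of the 13 mitochondrially encoded genes 1 was called lower and 2 higher. Of the marker genes of other tissues, edgeR called 0 of 2 for blood and immune cells, 0 of 3 for muscle, 0 of 4 for fat and 0 of 3 for nerve and glia, with 0, 0, 1 and 0 at an unadjusted p under 0.05 and 0, 0, 1 and 0 called by DESeq2. Tek, the endothelial marker measured, was below the count filter, and the markers of epithelium were not found by symbol among the 13543 named gene rows. Without S7 the calls of Igf1r and Usp18 were lost, that of Igf1r also without S1, S5, S6 or S8. With S3 and S4 as the only controls Igf1r (0.58 on the log2 scale, edgeR adjusted p = 0.0328) and C3 (1.71, edgeR adjusted p = 0.0532) were not called, and under spike-in scaling none of Cdkn1a, Igfbp4, Igfbp6, Igf1r, Bmp2, C3 and Usp18 was called. The genes named here were chosen after their values were seen.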
